A study of Mus musculus with 33 samples.

Results

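Fcrls, Lrg1, Cd177, Prg4, Dmkn, Ednrb, St6gal1 and Emp1 are 8 mouse genes, of 53735 gene names in each table, that were selected on large decreases in tumour monocytes or macrophages after interleukin 12 (IL-12) or IL-12 with radiotherapy. All 8 were found by name in all 9 tables. The values that chose them are the log2 fold changes after IL-12 and after the combination in those 2 cell populations, which are therefore given as a description. Where the text says that a gene was called in those contrasts, it repeats the authors' deposited call, which chose the genes and supports nothing here.

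RNA was sequenced from 3 immune populations sorted from pancreatic tumours of C57BL/6 mice, which carried KCKO pancreatic cancer cells, a single mouse line, injected into the tail of the pancreas. The sort took CD45+CD11b+Ly6C+Ly6G- cells as inflammatory monocytes, here IM. Macrophages of the tumour, here TAM, were CD45+CD11b+Ly6CmodLy6G-F480+ cells, and CD8 T cells were CD45+CD8+. Each population had an unirradiated group, a group given stereotactic body radiotherapy (SBRT, 4 fractions of 6 Gy on days 6 to 9), a group given IL-12 microspheres (0.5 µg in 2 mg of beads, injected into the tumour on day 10) and a group given SBRT followed by the microspheres. There were 33 libraries in 12 groups, 3 per group in IM and CD8, and in TAM 3 with IL-12 and 2 in each other group. Empty microspheres are named in the labels' protocols but not the groups that received them, and neither the day of harvest nor the age or sex of the mice is given. Nothing in the labels says that each library came from a separate mouse, so the p-values measure only the spread between these libraries.

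The 8 products have different roles. Ednrb encodes the endothelin B receptor and Fcrls a scavenger receptor of the Fc receptor-like family that is best known as a microglial marker. Lrg1 encodes a secreted leucine-rich glycoprotein that modulates transforming growth factor beta signalling and is induced through STAT3, Prg4 encodes lubricin, a secreted mucin-like proteoglycan made by joint lining cells and by large peritoneal macrophages, and Dmkn encodes dermokine, a secreted protein of the skin barrier. CD177 is a surface glycoprotein of neutrophils that holds proteinase 3 on the membrane and binds PECAM1. St6gal1 encodes the Golgi enzyme that adds alpha-2,6-linked sialic acid to N-glycans, which Siglec receptors such as CD22 recognise, and Emp1 encodes a small membrane protein with 4 transmembrane stretches, related to Pmp22.

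The set was labelled as lower in both myeloid populations, which by the deposited calls describes 5 of the 8 genes. A gene counted as called at a deposited adjusted p below 0.05 (DESeq2 Wald test with Benjamini-Hochberg adjustment), and in IM all calls came from the contrasts that chose the genes. Fcrls, Lrg1, Ednrb, St6gal1 and Emp1 were called lower in at least 1 comparison of each population. Cd177 and Dmkn were called lower in IM only and Prg4 in TAM only. Over all genes, 619 were called lower in at least 1 IM comparison and 466 in at least 1 TAM comparison, and 77 stood in both sets, which is 12.4% of the first and 16.5% of the second. Of the 6 IM and TAM comparisons, at least 5 called the same gene lower for 5 genes in all, of which Fcrls, Ednrb and Emp1 belong to the set and F13a1 and Fn1, both well-known monocyte and macrophage products, do not.

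Promoter sequences are shown for the 2 pairs of genes whose changes ran closest to each other over those 6 comparisons, Cd177 with Dmkn and Ednrb with St6gal1. Each is the 250 bases upstream of a start site annotated by RefSeq on GRCm38.p6, written 5′ to 3′ on the strand of the gene, and none of the 4 windows overlaps an annotated exon. Capitals mark matches to 9 short motifs that were searched on both strands. The windows are chr7:24760312-24760561 (minus strand) for Cd177, chr7:30763506-30763755 (plus strand) for Dmkn, chr14:103843702-103843951 (minus strand) for Ednrb and chr16:23224490-23224739 (plus strand) for St6gal1.
Cd177: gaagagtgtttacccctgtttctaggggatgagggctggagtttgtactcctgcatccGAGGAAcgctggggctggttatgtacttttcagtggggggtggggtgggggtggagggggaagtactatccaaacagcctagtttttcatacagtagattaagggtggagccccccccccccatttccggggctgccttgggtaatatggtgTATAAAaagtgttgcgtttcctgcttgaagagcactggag
Dmkn: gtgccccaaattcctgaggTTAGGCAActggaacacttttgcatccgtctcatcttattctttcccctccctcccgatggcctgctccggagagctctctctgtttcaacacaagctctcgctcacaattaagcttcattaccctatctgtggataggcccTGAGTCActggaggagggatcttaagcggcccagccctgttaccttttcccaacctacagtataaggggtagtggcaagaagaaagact
Ednrb: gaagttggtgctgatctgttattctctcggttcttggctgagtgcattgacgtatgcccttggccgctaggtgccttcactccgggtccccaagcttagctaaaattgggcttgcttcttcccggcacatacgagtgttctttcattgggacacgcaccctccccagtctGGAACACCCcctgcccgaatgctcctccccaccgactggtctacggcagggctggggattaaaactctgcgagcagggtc
St6gal1: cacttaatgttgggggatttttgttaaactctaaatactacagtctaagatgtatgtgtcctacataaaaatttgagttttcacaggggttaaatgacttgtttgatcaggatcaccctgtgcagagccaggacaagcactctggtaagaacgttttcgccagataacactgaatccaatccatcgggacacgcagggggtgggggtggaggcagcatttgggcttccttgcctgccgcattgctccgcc

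With positions counted back from the start site, the Cd177 window held a PU.1 core (GAGGAA) at -192 and a TATA motif (TATAAA) at -40. In the Dmkn window a C/EBP motif (TTGCNNAA, read on the opposite strand) stood at -233 and an AP-1 motif (TGANTCA) at -91, and the Ednrb window held an NF-kB motif (GGGNNTTCC, opposite strand) at -80. No match overlapped another, and the St6gal1 window held none. Among all 32851 RefSeq promoter windows of the same length, 23.3% held the PU.1 core, 12.4% the TATA motif, 9.56% the C/EBP motif, 6.75% the AP-1 motif and 4.98% the NF-kB motif. The other motifs searched were the STAT site TTCNNNGAA (in 7.02% of all windows), the interferon-stimulated response element (2.98%), the GC box GGGCGG (32.7%) and the palindromic glucocorticoid response element (0.387%). RefSeq windows were found for 7 of the 8 genes, 12 windows in all, and the interferon, GC box and glucocorticoid motifs were in none of the 12. The C/EBP and AP-1 motifs were each in 5 of the 12, the PU.1 core, NF-kB and TATA motifs each in 2, and the STAT site in 1, upstream of Emp1. Several of the 12 belong to 1 gene, and 2 windows of Dmkn are nearly the same sequence, so they are not independent. For St6gal1 the outermost start is shown, and its other 2 windows, 23225771 to 23226020 and 23290220 to 23290469, held a C/EBP match and C/EBP, NF-kB and AP-1 matches. A match is a description of letters in the window and not of a factor bound there.

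Levels differed widely between the sorted populations (the plot of mean levels by population). A level here is the authors' mean normalised count of a gene over a population's libraries, expressed in parts per 1000000 (ppm) of that population's total. The populations were normalised separately and no value per library was used, so these levels carry no error and no test, and they are not corrected for gene length. The depth per library is not known. Lrg1 averaged 72.9 ppm in IM, 5.66 in TAM and 0.660 in CD8 cells, so it was 12.9 times as high in IM as in TAM. Cd177 (38.7, 0.379 and 0.249) and Dmkn (22.2, 0.743 and 0.467) were almost confined to IM among these 3 populations, with IM levels 102 and 29.9 times those in TAM. Prg4 showed the reverse order, with 0.230 ppm in IM, 6.51 in TAM and 0.486 in CD8 cells, and Fcrls had 4.56, 19.8 and 0.306. Ednrb was 1.96 times as high in IM (12.7) as in TAM (6.49) and averaged 0.268 in CD8 cells. Emp1 was at a similar level in IM (28.6) and TAM (29.7) and lower in CD8 cells (12.8). St6gal1 was the 1 gene of the set that was highest in CD8 cells (13.6, against 12.4 in TAM and 5.94 in IM). The 3 genes called in 1 myeloid population only were thus those with under 1 ppm in the other.

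**Figure D1:**
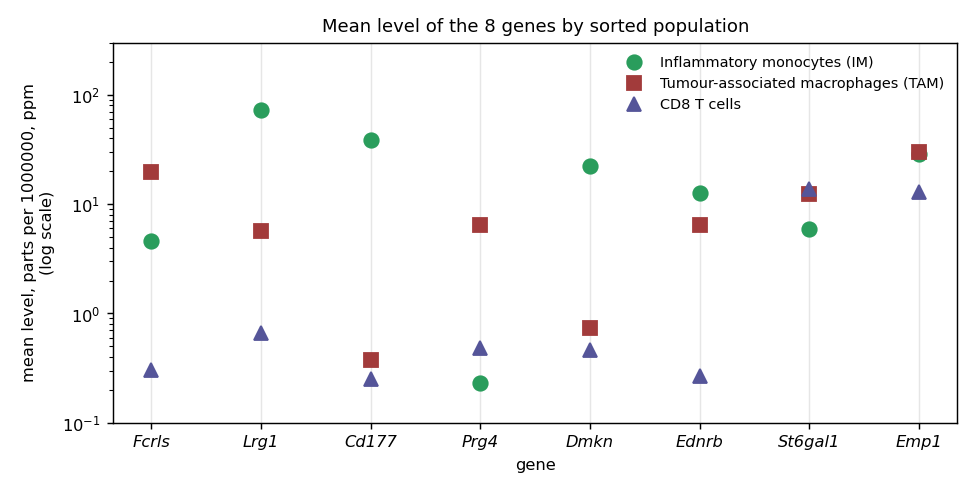
Mean level of each of the 8 genes in inflammatory monocytes, tumour-associated macrophages and CD8 T cells, in ppm of each population's total normalised counts (log scale). Each point is the authors' mean over all libraries of the population and has no error bar. Cd177 and Dmkn lie below 1 ppm outside IM, and Prg4 lies below 1 outside TAM.

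The sort labels matched their defining genes. Ly6c2, the Ly6C antigen, stood at 1035 ppm in IM, 49.8 in TAM and 362 in CD8 cells, Adgre1, the macrophage antigen of the sort, at 344, 726 and 6.67, and Cd8a at 4.68, 4.99 and 964. Ly6g, the neutrophil antigen used to exclude cells, was at 0.593 ppm in IM, while other genes of the neutrophil list were well above it there (Csf3r 202, S100a8 60.9).

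In the following, an implied level is a group's normalised level worked out from the authors' mean and log2 fold changes, and each log2 fold change is treated over unirradiated, from the authors' deposited table, with the standard error (SE) that the deposited statistic implies. The deposited fold changes appeared shrunken towards 0, more so at low levels, so implied differences between the groups of a population are conservative. Differences between populations need not be, where a gene's level differs. Values per library were not used, so whether groups overlap cannot be stated. In bulk RNA of sorted cells, fewer cells of a type that makes a transcript and less of it per cell cannot be told apart.

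Among the receptors, Fcrls (chromosome 3, 87250758 to 87263738, minus strand, GRCm38) showed the largest decreases. In IM its implied levels were 443 unirradiated, 226 after SBRT, 114 after IL-12 and 90.0 after the combination. In TAM they were 1946, 620, 777 and 538. All treated groups of both populations were thus below the unirradiated group. The log2 fold change in IM was -1.96 ± 0.24 (SE) after IL-12 and -2.30 ± 0.21 after the combination, 4.93-fold lower, and both were called. In TAM it was -1.33 ± 0.26 after IL-12 and -1.86 ± 0.27 after the combination, both called. After SBRT alone, which was not used to pick the genes, Fcrls fell in TAM with a log2 fold change of -1.65 ± 0.28 (DESeq2 adjusted p = 1.52e-06). In IM the SBRT value was -0.97 ± 0.29, the third lowest log2 fold change of 19273 genes tested, and did not pass (adjusted p = 0.109).

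Ednrb (chromosome 14, 103814625 to 103844402, minus strand) had a graded pattern in IM and a flat one in TAM. Its implied levels in IM were 1028, 746, 390 and 266 in the unirradiated, SBRT, IL-12 and combination groups. In TAM they were 526, 248, 252 and 249, so the 3 treated groups lay within a few units of each other. The IM log2 fold changes were -1.40 ± 0.23 after IL-12 and -1.95 ± 0.22 after the combination, and the TAM values -1.06 ± 0.28 and -1.08 ± 0.29, all called, although the last was not called with the statistics rescaled to their own spread over genes. After SBRT alone Ednrb fell in TAM by 1.08 on the log2 scale (SE 0.29, DESeq2 adjusted p = 0.0155), and the IM value of -0.46 ± 0.24 did not pass (adjusted p = 0.717).

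Lrg1 (chromosome 17, 56119678 to 56122001, minus strand), the first of the secreted products, was called lower after the combination in both populations, after IL-12 in IM and after SBRT in TAM. In IM its implied levels were 5575 unirradiated, 4956 after SBRT, 1968 after IL-12 and 1456 after the combination. In TAM they were 508, 112, 306 and 144. SBRT thus left the IM level close to that of the unirradiated group, whereas in TAM the lowest level was that after SBRT. The IM log2 fold changes were -1.50 ± 0.21 after IL-12 and -1.94 ± 0.21 after the combination, both called, and -0.17 ± 0.22 after SBRT (DESeq2 adjusted p = 0.994). In TAM Lrg1 fell after SBRT by 2.19 on the log2 scale (SE 0.26, 4.55-fold lower, adjusted p = 5.89e-14), the second lowest value of 18436 genes tested. Its TAM value was -1.81 ± 0.27 after the combination, which was called, and -0.73 ± 0.24 after IL-12, which was not.

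Prg4 (chromosome 1, 150449412 to 150466165, minus strand) was called lower in TAM after SBRT and after the combination. The TAM implied levels were 500 unirradiated, 144 after SBRT, 409 after IL-12 and 148 after the combination, so the IL-12 group lay nearest to the unirradiated group. The log2 fold change was -1.80 ± 0.25 after SBRT (DESeq2 adjusted p = 7.36e-10, the third lowest value of 18436) and -1.76 ± 0.25 after the combination, which was called. After IL-12 it was -0.29 ± 0.23 and was not called. The difference between treatments was not tested. In IM the gene averaged a normalised level of 11 and its 3 log2 fold changes lay between -0.09 and 0.26. Its exons overlap those of Tpr, a nuclear pore gene on the opposite strand, and the library kit does not mark strand. Tpr was not called in any of the 6 comparisons, with log2 fold changes from 0.02 to 0.16.

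Dmkn (chromosome 7, 30763756 to 30781063, plus strand) was called in IM and not in TAM, a difference that was not tested. Its IM implied levels were 1675 unirradiated, 1423 after SBRT, 757 after IL-12 and 404 after the combination. The log2 fold change was -1.15 ± 0.22 after IL-12 and -2.05 ± 0.21 after the combination, both called, and -0.23 ± 0.23 after SBRT (DESeq2 adjusted p = 0.993). The TAM mean level was 35.7, and the 3 TAM log2 fold changes ranged from -0.27 to -0.11.

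Cd177 (chromosome 7, 24743983 to 24760311, minus strand) behaved much like Dmkn. Its IM implied levels were 3068, 2564, 1081 and 687 in the unirradiated, SBRT, IL-12 and combination groups, with log2 fold changes of -1.50 ± 0.19 after IL-12 and -2.16 ± 0.19 after the combination, both called. The SBRT value was -0.26 ± 0.20 (DESeq2 adjusted p = 0.948). At a mean level of 18.2 in TAM it gave log2 fold changes of 0.26 ± 0.29, -0.10 ± 0.24 and -0.37 ± 0.17 after SBRT, IL-12 and the combination, none of which passed.

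Because CD177 is a neutrophil antigen, the neutrophil marker list is given beside it. In IM, 1 of 16 tested list genes was called lower after IL-12 (Mmp8, a granule collagenase, -0.95 ± 0.22). After the combination 2 of 17 were lower, Mmp8 (-1.04 ± 0.22) and Lcn2 (-0.63 ± 0.18), and Il1r2, a decoy receptor, was higher (0.83 ± 0.18). The list's median was -0.01 after IL-12 and -0.15 after the combination, against -0.02 for all genes tested in each. The summed implied level of its 18 genes ranged from 593 to 634 ppm over the 4 IM groups, and no gene of it was at 0. The sum was 634 ppm unirradiated and 612 after the combination, and the part of neutrophil RNA in the Cd177 values was not tested.

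St6gal1 (chromosome 16, 23224740 to 23360350, plus strand) followed Ednrb closely. Its implied levels were 506, 304, 195 and 132 in the unirradiated, SBRT, IL-12 and combination groups of IM, and 1003, 566, 441 and 451 in those of TAM. All 6 treated groups were below their unirradiated group. In IM the log2 fold changes were -1.37 ± 0.23 after IL-12 and -1.93 ± 0.22 after the combination, and in TAM -1.18 ± 0.26 and -1.15 ± 0.27, all called. The SBRT values were -0.74 ± 0.24 in IM (DESeq2 adjusted p = 0.172) and -0.83 ± 0.28 in TAM (adjusted p = 0.105), and neither passed. An annotated transcript on the opposite strand, BC106179, overlaps its exons, and no value for that transcript was used.

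Emp1 (chromosome 6, 135362545 to 135383173, plus strand) had the smallest called decreases in IM. Its implied levels were 1973, 1242, 1121 and 1141 in IM and 2541, 1282, 1057 and 1013 in TAM, in the same order of groups. The 3 treated groups of a population lay closer to each other than to the unirradiated group. The IM log2 fold changes were -0.81 ± 0.19 after IL-12 and -0.79 ± 0.19 after the combination, and the TAM values -1.27 ± 0.19 and -1.33 ± 0.20, all called. With the statistics rescaled to their own spread, the IM value after the combination was not called. After SBRT alone Emp1 fell in TAM (-0.99 ± 0.20, DESeq2 adjusted p = 3.10e-04), and its IM value of -0.67 ± 0.19 did not pass (adjusted p = 0.0856).

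**Figure D2:**
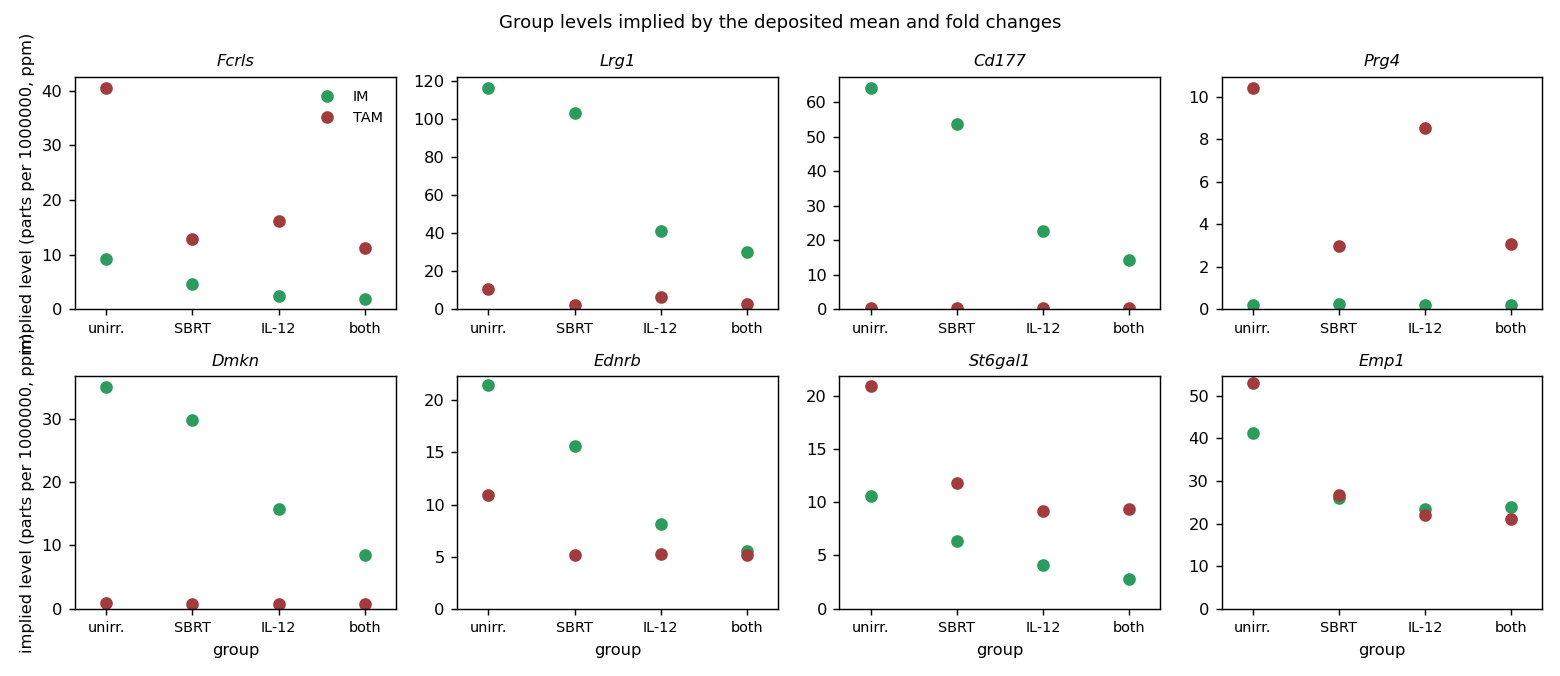
Implied level of each gene in the unirradiated, SBRT, IL-12 and combination (both) groups, in ppm of the population's total, for IM and TAM. Points are group values derived from the authors' mean and fold changes, without error bars, and each panel has its own axis from 0. TAM levels of Fcrls, Lrg1, Prg4, Dmkn and Ednrb are lowest in the 2 groups given SBRT, for Dmkn and Ednrb by little. IM levels of all genes but Prg4 are lowest in the 2 groups given IL-12.

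As counts over the set, IL-12 called 7 of the 8 genes lower in IM, where 1.33% of 16829 tested genes were lower and 1.91% higher. The combination also called 7 lower in IM, against 3.03% of 18660 lower and 3.69% higher. In TAM, IL-12 called 4 lower (0.284% of 19042 tested genes, with 0.651% higher) and the combination 6 (1.97% of 17224, with 2.24% higher). No member was called higher in these 4 comparisons. These contrasts chose the genes, so nothing is read from these counts. In IM, 6 of the 7 called genes had a lower log2 fold change after the combination than after IL-12 alone, by 0.34 (Fcrls) to 0.91 (Dmkn), while Emp1 differed by 0.03 in the other direction. In TAM the combination lay below IL-12 alone by 1.09 for Lrg1, 1.47 for Prg4, 0.53 for Fcrls, 0.27 for Cd177 and 0.16 for Dmkn, and was within 0.06 of it for Ednrb, St6gal1 and Emp1. These differences were not tested, since both contrasts entered the choice of the genes.

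SBRT alone is the myeloid contrast that did not enter the choice, although it shares the unirradiated libraries with those that did, and a high value in those libraries would lower all 3 contrasts. In TAM, SBRT called 5 of the 8 genes lower, Fcrls, Lrg1, Prg4, Ednrb and Emp1, where 1.15% of 18436 tested genes were lower and 0.933% higher. The members' median log2 fold change was -1.03, against 0.00 for all genes tested. In IM, SBRT called 0 of 8 by the DESeq2 Wald test, where 0.14% of 19273 tested genes were lower and 0.379% higher. There 3 genes, Fcrls, St6gal1 and Emp1, had an unadjusted p under 0.05, 7 of 8 had a negative sign, and the median was -0.36 against -0.02 for all tested genes.

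**Figure D3:**
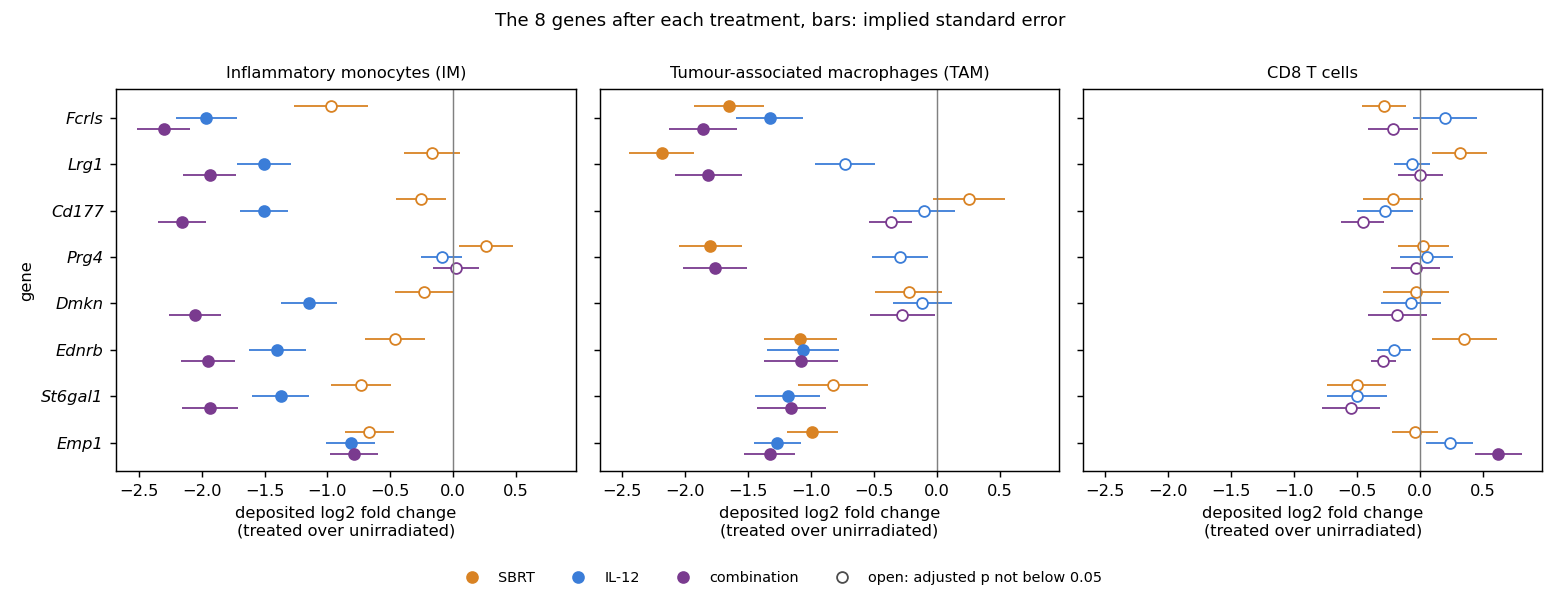
Deposited log2 fold change of each gene after SBRT, IL-12 and the combination over unirradiated, in IM, TAM and CD8 T cells. Bars are the implied standard error, and filled points have a deposited adjusted p below 0.05. In TAM the SBRT points of Lrg1 and Prg4 lie at -2.19 and -1.80, and in IM at -0.17 and 0.26.

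The SBRT effect itself was compared between the populations, whose libraries are separate. The test took the 2 effects as independent, although the labels do not say whether both populations came from the same mice. Each side still shares its unirradiated libraries with the contrasts that chose the genes. A high value in those of TAM would raise the difference. The difference of the 2 effects, IM minus TAM, was 2.02 ± 0.34 (SE) on the log2 scale for Lrg1 (2-sided normal test, Benjamini-Hochberg adjusted p = 4.19e-06) and 2.02 ± 0.31 for Prg4 (adjusted p = 2.57e-07). After SBRT both genes were thus lower in TAM relative to IM. Over all genes the difference passed for 79 of 30093 (0.263%), of which 32 were higher in IM (0.106%). For Prg4 the IM side of the difference rests on a mean normalised level of 11, where fold changes were shrunken most. The implied SE is also smaller at low levels, so the adjusted p for Prg4 may be too small. The other 6 genes did not pass. Their differences ranged from -0.47 ± 0.31 for Cd177 to 0.82 ± 0.36 for Fcrls (adjusted p = 0.789), and missing the threshold does not show that their effects were equal.

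**Figure D4:**
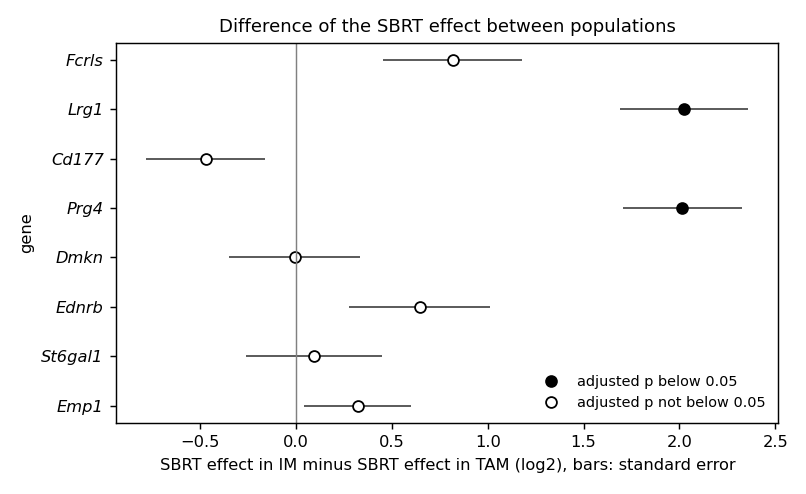
SBRT effect in IM minus SBRT effect in TAM for the 8 genes, on the log2 scale with the standard error as bars. Filled points pass an adjusted p of 0.05 over all 30093 genes. Lrg1 and Prg4 both lie at 2.02, and the other 6 genes lie between -0.47 and 0.82.

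CD8 T cells come from libraries that the choice of genes did not use. Emp1 rose there after the combination, with implied levels of 502 unirradiated, 489 after SBRT, 592 after IL-12 and 772 after the combination. Its log2 fold change was 0.62 ± 0.19 (DESeq2 adjusted p = 0.0184), opposite in sign to its myeloid values, and with the statistics rescaled to their own spread over genes the adjusted p became 0.440. It was the 1 member called higher of 2 tested in that comparison, where 4.51% of 15115 genes were called higher, and 0 members were called lower (2.96% of genes). St6gal1 had log2 fold changes of -0.50 ± 0.24 after SBRT, -0.50 ± 0.24 after IL-12 and -0.55 ± 0.23 after the combination, with adjusted p of 0.401, 0.295 and 0.138. After SBRT 0 of 5 tested members were called in either direction (0.471% of genes), and after IL-12 0 of 2 (2.52%), by the DESeq2 Wald test. At an unadjusted p under 0.05, St6gal1 was the 1 member in each of those 2 comparisons. After the combination 3 members were lower at that level, Cd177, Ednrb and St6gal1, and 1 was higher, Emp1. Cd177 and Ednrb had no adjusted p there. The 6 genes other than Emp1 and St6gal1 were below 1 ppm in CD8 cells, which limits what could be detected there.

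The genes whose changes ran most like the set were found by the Euclidean distance over the 6 IM and TAM log2 fold changes, among 13119 genes with a mean level of at least 50 in both populations. This distance includes the contrasts that chose the genes and comparisons that share controls, so it is a description. Nearest to the median profile of the 8 genes were Fn1 (distance 0.48), which encodes fibronectin, Gpr183 (0.55), the oxysterol receptor EBI2, Cx3cr1 (0.71), the fractalkine receptor, Itga6 (0.91), the integrin alpha 6 chain, and Pf4 (0.94), a platelet and macrophage chemokine. The median distance of all genes was 3.04. Fn1 had IM log2 fold changes of -0.40, -1.10 and -1.66 after SBRT, IL-12 and the combination and TAM values of -0.88, -1.05 and -1.38, and was called in 5 of the 6. Within the set, Ednrb and St6gal1 were closest (0.40), followed by Cd177 and Dmkn (0.61), and Cd177 and Prg4 were farthest apart (3.63). The members themselves were not held to the level of 50. Cd177 and Dmkn averaged 18.2 and 35.7 in TAM and Prg4 11 in IM, where shrinkage towards 0 is stronger and enters these distances.

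Single genes had different neighbours. Ednrb and St6gal1 had Fn1 nearest (0.56 and 0.58), and their second neighbours were Gpr183 (0.69) and Pf4 (0.68). Cd177 and Dmkn shared Cd163, a haemoglobin scavenger receptor (0.55 and 0.65), and Timp1, a metalloproteinase inhibitor (0.56 and 0.53). In IM, Cd163 had log2 fold changes of -1.75 ± 0.23 after IL-12 and -1.99 ± 0.22 after the combination and Timp1 -1.46 ± 0.19 and -1.73 ± 0.19, and neither was called in TAM. Lrg1 had Itga6 (1.01) and Cx3cr1 (1.46) nearest, and Fcrls had Itga6 (1.52) and Fn1 (1.54). Prg4 was nearest to Kntc1 (0.97) and Bub1 (0.98), which encode proteins of the mitotic kinetochore. Both fell in TAM after SBRT (Kntc1 -1.23 ± 0.27, Bub1 -1.09 ± 0.26) and after the combination (-1.46 ± 0.26 and -1.26 ± 0.25). Emp1 had Ltc4s (0.80), the leukotriene C4 synthase, and Igfbp4 (0.85) nearest.

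Prg4 belongs to the genes known from large peritoneal macrophages, and most tested genes among the other 17 of that list fell with it in TAM after SBRT (the plot of that list). There 9 of 16 tested genes were called lower and none higher, where 1.15% of all 18436 tested genes were lower and 0.933% higher. All 16 had a negative sign, with a median log2 fold change of -0.60 against 0.00 for all genes tested. The list was chosen with earlier results of these data known, and each of the 2 groups compared had 2 libraries. The 9 were Gata6, Alox15, Selp, Cd5l, F5, Saa3, Ltbp1, Slpi and Fn1, named in full after their values were seen. Gata6, the transcription factor that defines these macrophages, fell by 0.57 (SE 0.13, DESeq2 adjusted p = 0.0017) from a mean level of only 0.512 ppm, and Selp, P-selectin, fell by 1.02 (SE 0.28, adjusted p = 0.019). After IL-12, 2 of 17 fell (Fn1 and Cd9, median -0.33), and after the combination 4 of 16 (Selp, F5, Fn1 and Cd9, median -0.52). In IM, Thbs1, which encodes thrombospondin 1, and Fn1 fell after IL-12 and after the combination, and 0 of 15 were called after SBRT, with 2 at an unadjusted p under 0.05. The medians in IM lay between -0.08 and 0.01.

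**Figure D5:**
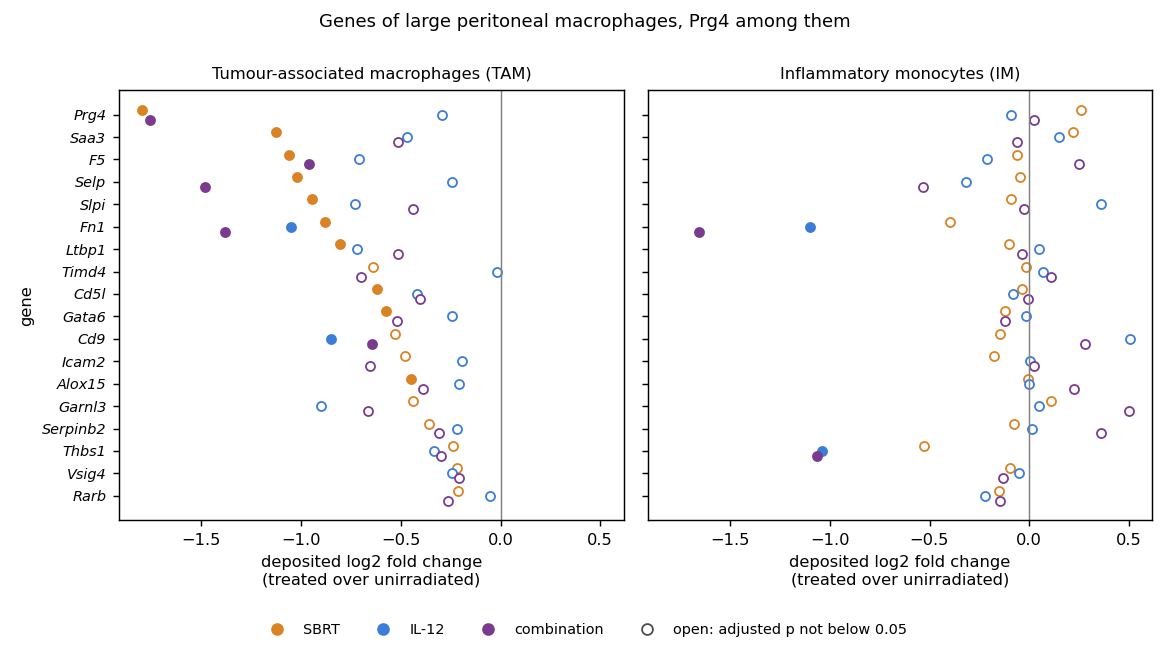
Deposited log2 fold changes of Prg4 and the 17 other genes of the large peritoneal macrophage list in TAM and in IM after SBRT, IL-12 and the combination. Filled points have a deposited adjusted p below 0.05, and genes are ordered by their TAM value after SBRT. All TAM points lie below 0, and in IM the filled points belong to Fn1 and Thbs1.

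Lubricin is also made by fibroblast-like and mesothelial lining cells, whose markers are therefore given beside Prg4. In TAM the fibroblast list had 2 of 8 tested genes called lower after SBRT, Col1a1 (-1.47 ± 0.24), a collagen chain, and Acta2 (-0.99 ± 0.22), smooth muscle actin. After the combination 3 of 8 were lower, Col1a1 (-1.09 ± 0.25), Acta2 (-1.09 ± 0.22) and Dcn (-0.90 ± 0.24), and 0 of 9 were called after IL-12, with 1 at an unadjusted p under 0.05. The summed implied level of the 10 genes in TAM was 69.4 ppm unirradiated, 40.6 after SBRT, 57.2 after IL-12 and 43.3 after the combination, with no gene at 0. The fibroblast sum was thus lower in the same 2 groups as Prg4, and its part in the Prg4 values was not tested. Of 8 mesothelial markers, 5 (Upk3b, Upk1b, Lrrn4, Muc16 and Calb2) had a mean normalised level under 1 in TAM, and the summed implied level was 6.39 ppm unirradiated, 4.37 after SBRT, 4.91 after IL-12 and 5.38 after the combination. This sum was thus highest unirradiated and lowest after SBRT, as Prg4 was. Unlike Prg4, it was higher after the combination than after IL-12. In each TAM comparison 2 of the 8 markers were tested and 0 were called, with at most 1 at an unadjusted p under 0.05. The epithelial list, which shares a gene with the mesothelial list, summed in TAM to 54.4 ppm unirradiated and 35.9 after SBRT. It summed to 46.3 after IL-12 and 57.7 after the combination. In each TAM comparison 7 of its genes were tested and 0 were called, with at most 4 at an unadjusted p under 0.05. The part of mesothelial or epithelial RNA in the Prg4 values was not tested.

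The other genes of the 2 receptor families were fixed as lists with earlier results known. Of 12 other Fc receptor and Fc receptor-like genes, none was called lower in any IM or TAM comparison. Fcgr4, an activating receptor for IgG, rose in IM after IL-12 (0.61 ± 0.15) and the combination (0.89 ± 0.15) and in TAM after the combination (0.58 ± 0.17), and Fcrlb rose in IM after the combination (0.52 ± 0.18). Of 7 other endothelin system genes only 2 or 3 were tested per comparison, and 0 were called by the DESeq2 Wald test, with at most 1 at an unadjusted p under 0.05. Edn1, the ligand endothelin 1, had log2 fold changes between 0.07 and 0.36 from levels of 1.46 ppm in IM and 2.99 in TAM.

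Sialic acid genes showed changes beside St6gal1 in both directions. Of 14 tested sialyltransferases, 5 fell in IM after the combination and St3gal5, the GM3 synthase, rose (0.83 ± 0.16). St8sia4, which builds polysialic acid, fell in IM after IL-12 (-0.70 ± 0.15) and the combination (-0.78 ± 0.15) and in TAM after SBRT (-0.93 ± 0.19) and the combination (-1.06 ± 0.19). In TAM, St3gal6 fell after SBRT (-1.16 ± 0.24) and St3gal5 rose after the combination (0.92 ± 0.24). IL-12 called 1 of 11 in IM, St8sia4, and 0 of 14 in TAM, where 5 had an unadjusted p under 0.05. SBRT called 1 of 14 lower in IM, St8sia6. The list medians ranged from -0.31 to -0.10 over the 6 comparisons. Among the receptors that bind sialic acid, Siglece and Cd33, both Siglecs of myeloid cells, fell in IM after IL-12 (-0.57 ± 0.17 and -0.84 ± 0.18). Both also fell in IM after the combination (-1.05 ± 0.17 and -0.55 ± 0.18) and in TAM after the combination (-0.78 ± 0.22 and -0.82 ± 0.26). Cd22, whose ligand is the product of ST6GAL1, rose in IM after the combination (0.71 ± 0.23).

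Of 6 relatives of Emp1, 1 was called in TAM and 0 in IM, where none of the 3 tested had an unadjusted p under 0.05. Pmp22, a myelin protein of the same family, fell in TAM after SBRT (-2.35 ± 0.24), IL-12 (-0.93 ± 0.22) and the combination (-1.15 ± 0.25), and its IM values of -0.37 to -0.14 did not pass. Emp3, the family member with the highest level (228 ppm in IM, 205 in TAM), stayed between -0.20 and 0.01 in the 6 comparisons and was not called.

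Partners of LRG1 gave calls in both directions. In IM, Tgfb3 rose after IL-12 (0.87 ± 0.21) and the combination (0.81 ± 0.21), and Acvrl1, a type I receptor of the pathway, rose after the combination in IM (0.67 ± 0.14) and TAM (0.50 ± 0.15). Of 13 tested genes, 2 were called lower in IM after the combination (Tgfb1 and Smad3) and 2 of 14 in TAM after SBRT (Tgfbr2 and Tgfb2, the latter -0.57 ± 0.14 from 0.332 ppm). Eng, the co-receptor that LRG1 binds, was not called in IM or TAM, with log2 fold changes from 0.02 to 0.35. Of the other STAT3-induced genes, Fgl2 rose in IM after IL-12 (0.69 ± 0.15) and the combination (0.99 ± 0.15), Steap4 (-0.92 ± 0.19) and Lcn2 fell in IM after the combination, and Saa3 fell in TAM after SBRT (-1.13 ± 0.24). Of the glucocorticoid-induced genes, Cd163 fell in IM after IL-12 and the combination, Klf9 fell in IM after the combination (-0.70 ± 0.15), and 0 of 12 were called in TAM after any treatment, with 3 to 5 at an unadjusted p under 0.05.

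Among genes related to CD177, Prtn3, which encodes the proteinase 3 that CD177 holds, was not called in IM (0.13 to 0.27) or TAM (-0.62 to -0.40), while Pecam1 rose in IM after the combination (0.72 ± 0.20). Cd44, a receptor that binds lubricin and hyaluronan, fell in IM after IL-12 (-0.46 ± 0.13) and the combination (-0.73 ± 0.13), as did Vcan, the proteoglycan versican (-0.72 ± 0.18 and -1.23 ± 0.18), and 0 of the lubricin list's 10 or 11 tested genes were called in TAM, with at most 3 at an unadjusted p under 0.05. Of 7 skin barrier genes near dermokine, 2 were tested per comparison and 0 were called, with at most 1 at an unadjusted p under 0.05.

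Markers of the sorted cells themselves also moved in the groups in which the 8 genes were low. In IM, 5 of 10 monocyte markers were lower after IL-12 and after the combination, Fn1 and F13a1 (-0.84 ± 0.15 and -1.03 ± 0.15) among them, and 2 were higher, Ly6c2 and Plac8. Mrc1 and Trem2 were called lower in IM after both IL-12 and the combination, whereas C1qa, C1qb and C1qc were higher after the combination. The summed implied level of the 10 monocyte markers in IM was 7521 ppm unirradiated, 7293 after SBRT, 6672 after IL-12 and 6056 after the combination. In TAM it was 1934, 1564, 1698 and 1512 in the same order. Of 10 dendritic cell markers in IM, 2 were called lower after IL-12, and 2 lower and 2 higher after the combination. That list summed to 563, 658, 627 and 706 ppm in IM. The sum of the 12 macrophage markers ranged from 8123 to 8481 ppm over the 4 IM groups and from 28776 to 31802 over the 4 TAM groups. T cell markers summed to 35.6 to 43.9 ppm in IM and 30.9 to 44.3 in TAM, and 0 of 10 were called in any of the 6 comparisons, with at most 4 at an unadjusted p under 0.05. The part of shifts in cell make-up in the values of the 8 genes was not tested.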

How the data were processed

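RNA from 3 sorted populations was sequenced in 33 libraries. Per the labels' protocols libraries were made with the TruSeq RNA V2 kit. The build was GRCm38 and the tools were STAR 2.6.0c, Salmon, featureCounts, Subread, Trimmomatic 0.36 and FastQC 0.11.8, per the submitters' processing notes, which give no role or order. All values derive from 9 deposited tables, which per the file headers are DESeq2 results of a treated against an unirradiated group. Their mean level is a signal deposited by the authors, per the file headers a mean of normalised counts, and the 3 tables of each population hold the same means. The log2 fold changes deposited by the authors appear shrunken, since their ratio to the statistic falls at low levels. The Wald statistic is a score deposited by the authors, and the p-value deposited by the authors is the 2-sided normal probability of it. The DESeq2 version, design formula and annotation are not given in the sources used here, and the depth per library is not known, so no counting intervals are given.

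A gene was called at a deposited adjusted p below 0.05. The SE is the log2 fold change over the statistic. The IM minus TAM difference multiplies each statistic by an SE shared by the tables of its own population, which is their median. It can thus depart from the subtracted fold changes, and was adjusted over 30093 genes. For Fcrls it was 0.82, against 0.68 with the SE of each comparison itself. Implied levels split the mean level by the fold changes, weighted by libraries per group. Calculations used Python 3.11.15, numpy 2.4.6, pandas 2.3.3 and scipy 1.17.1, and were tested on simulated data.

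The members and the 23 lists (11 of cell markers, 12 of pathways) were chosen with earlier results of these data known. Named were all 8 members, at most 3 called genes per list by adjusted p, family partners that share a ligand, substrate or locus with a member, overlapping genes, and the nearest 5 genes to the median profile and 2 to each member. Further names were chosen after their values were seen: the remaining called members of the large peritoneal macrophage, monocyte, macrophage, sialyltransferase and LRG1 lists, the mesothelial genes under a level of 1, and the sort and neutrophil genes given as checks. Gene positions came from GENCODE M21 on GRCm38 and promoters from RefSeq on GRCm38.p6. Alternatives changed the threshold, the genes adjusted over, the spread of the statistic, the centring and the group weights. The values of 1 list gene are not reported here.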

Additional observations from a re-analysis of the deposited data

Results flagged for a closer look

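For Lrg1 and Prg4 the effect of SBRT differed between the myeloid populations by the test of the difference itself. Lrg1, which encodes a secreted modulator of transforming growth factor beta signalling, had an SBRT effect in IM minus that in TAM of 2.02 on the log2 scale (SE 0.34, 2-sided normal test, Benjamini-Hochberg adjusted p = 4.19e-06 over 30093 genes). Its deposited log2 fold changes were -0.17 in IM and -2.19 in TAM. Prg4, which encodes lubricin, had a difference of 2.02 (SE 0.31, adjusted p = 2.57e-07), from 0.26 in IM and -1.80 in TAM. Its IM value rests on a mean normalised level of 11. Fold changes and their implied SE are both smaller at low levels, so this adjusted p may be too small. The test took the 2 effects as independent, and the labels do not say whether the populations shared mice. The SBRT group and the unirradiated group of TAM had 2 libraries each. Those unirradiated libraries also served the contrasts that chose the genes, and a high value in them would raise both differences.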

How the results depend on the processing

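Of the counts of called members, all but that in CD8 cells after the combination stayed within 1.5 times their value under the 5 alternatives run. That count fell from 1 to 0 at a deposited adjusted p below 0.01, and to 0 with the statistics divided by their robust spread over genes, where Emp1 had an adjusted p of 0.440. With that rescaling Emp1 in IM after the combination (adjusted p = 0.118) and Ednrb in TAM after the combination (adjusted p = 0.11) lost their calls, and at 0.01 Ednrb lost its calls in TAM after SBRT and after IL-12. The causes were not tested. Of the single-gene values under alternatives, 378 kept their direction and side of the threshold, 6 lost their call as given here, and none reversed. The differences of the SBRT effect for Lrg1 and Prg4 passed under all 3 alternatives run. Equal group weights changed the implied TAM levels by factors of 0.969 to 1.04. Leaving out each replicate was planned but not run, since the tables used hold no values per library. No paired analysis was possible because the tables hold 1 fold change per comparison and no column per replicate. In TAM most groups have 2 libraries, which limits precision there.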
